A study of Mus musculus with 9 samples.

Results

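The 6 metabotropic glutamate receptor genes Grm2, Grm3, Grm4, Grm5, Grm7 and Grm8 were described in the medial prefrontal cortex of mice. They were taken by gene symbol from 35125 genes with an NCBI identifier in the expression table, and each of the 6 was found once. All 6 passed the filter on low values (at least 0.5 FPKM in at least 3 of 9 libraries), as did 14013 genes in all. FPKM is a level normalised for library size and transcript length (fragments per kilobase, in proportion to all those mapped). The other receptors of the family are not analysed here.

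The study compared 3 groups with 3 libraries each. The control group had no stress. The CUS model group had chronic unpredictable stress, a sequence of mild stressors used to model depression in rodents. The running model group is listed with exercise, and the series design places running in stressed mice. The labels of all 9 libraries also carry the periods 4 week and week 8, and do not say what each refers to. The sources used here give no strain, no age and no form of running. The sources do not say that each library is a separate animal, so p-values reflect how much these libraries vary, and part of that may be technical.

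Metabotropic glutamate receptors are G protein-coupled receptors that bind glutamate at a large extracellular domain and work as dimers. Group I receptors, here Grm5, couple to Gq and phospholipase C and sit mainly around the postsynaptic density. Group II (Grm2 and Grm3) and group III (here Grm4, Grm7 and Grm8) couple to Gi/o, lower cyclic AMP and restrain transmitter release, mostly from the presynaptic side. Grm3 and Grm5 are also known in astrocytes. Group II receptors and the product of Grm5 have long been studied as drug targets in depression.

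None of the 6 receptors passed the test in any comparison between the groups. Over the 9 libraries the coefficient of variation (SD divided by the mean) was 4.53% for Grm5, 5.74% for Grm7, 6.54% for Grm8, 7.40% for Grm4, 8.79% for Grm3 and 10.0% for Grm2. The largest estimated differences concerned the running model, where Grm2 was 13.9% below the CUS model and 14.6% below control, and Grm4 was 12.9% above the CUS model. These differences are on the log2(FPKM + 0.5) scale, and their values by library follow.

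Expression was highest for Grm5 and Grm2, intermediate for Grm3 and Grm7, and lowest for Grm4 and Grm8. Means over the 9 libraries were 24.2 FPKM for Grm5, 23.8 for Grm2, 15.3 for Grm3, 13.7 for Grm7, 7.13 for Grm4 and 7.04 for Grm8. FPKM is scaled to transcript length, so these levels can be set side by side between genes. Among the 14013 genes, 75.8% had a lower mean than Grm5 and 42.9% a lower mean than Grm8.

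Some neighbours in this order did not differ beyond their spread. Grm5 exceeded Grm2 in 5 of 9 libraries, with a mean log2 gap of 0.03 ± 0.18 (SD, n = 9), and Grm4 exceeded Grm8 in 3 of 9, with a gap of 0.02 ± 0.17. Grm3 exceeded Grm7 in 8 of 9 libraries, and the gap of 0.15 ± 0.16 was no larger than its spread. The steps between the tiers were larger: Grm2 exceeded Grm3 in 9 of 9 libraries by 0.62 ± 0.12, and Grm7 exceeded Grm4 in 9 of 9 by 0.90 ± 0.13. Grm5 stood above Grm2 in 1 of 3 control, 1 of 3 CUS model and 3 of 3 running model libraries.

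**Figure D1:**
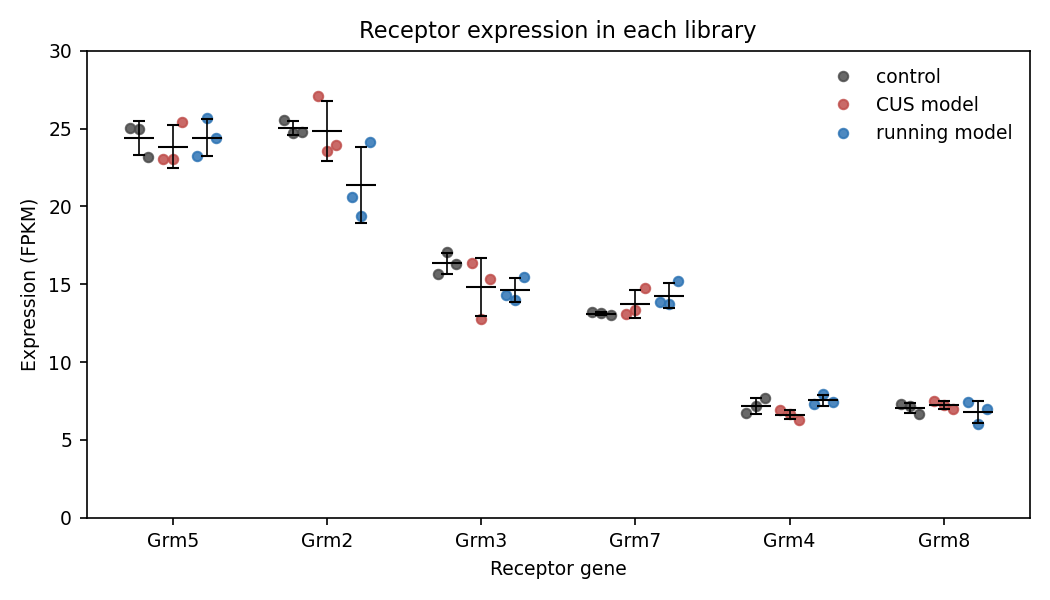
Expression of the 6 receptor genes in FPKM (vertical axis, from 0), ordered by mean level. Each point is 1 library (control grey, CUS model red, running model blue), and black bars give the mean and SD of 3 libraries. The 3 tiers of level, Grm5 with Grm2, Grm3 with Grm7, and Grm4 with Grm8, are present in every group, and the running model points of Grm2 lie between 19.4 and 24.13.

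Grm5, the Gq-coupled receptor of group I, lies on chromosome 7 (87583981 to 88135063, GRCm38.p6). Its values were 25.03, 24.98 and 23.15 FPKM in control, 23.03, 23.07 and 25.42 in the CUS model, and 23.24, 25.67 and 24.37 in the running model. The 3 groups overlapped, and no group held all its libraries at either end of the range. The log2 difference was -0.03 (SE 0.0642) for the CUS model against control and 0.03 for the running model against the CUS model, with limma adjusted p of 0.815 and 0.776. For the running model against control the 95% interval ran from -9.23% to 10.5%.

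Grm2, known as a presynaptic autoreceptor of group II, lies on chromosome 9 (106644534 to 106656109) in a compact gene of 11.6 kb, where the other 5 span 91.4 to 921.9 kb. It had 25.56, 24.74 and 24.79 FPKM in control, 27.08, 23.57 and 23.96 in the CUS model, and 20.63, 19.4 and 24.13 in the running model. Every running model library was below every control library, while running model replicate 3 exceeded 2 of the CUS model libraries. Group means were 25.0 ± 0.460 in control, 24.9 ± 1.92 in the CUS model and 21.4 ± 2.45 FPKM in the running model (SD, n = 3 each). The running model differed from the CUS model by -0.22 on the log2 scale (SE 0.0829, limma unadjusted p = 0.0248, adjusted p = 0.155). It differed from control by -0.23 (limma unadjusted p = 0.0194, adjusted p = 0.331). The CUS model and control differed by -0.01, with a 95% interval of -12.6% to 12.6%.

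The size of the Grm2 estimate varied with the running model libraries and the scaling. Against the CUS model it was -0.30 without running model replicate 3, -0.15 without running model replicate 2, and -0.12 after rescaling each library to a common sum (TPM). The summed level of 7 inhibitory neuron markers was 678 to 734 FPKM in the running model, 779 to 877 in the CUS model and 695 to 869 in control. Of these markers, 2 were lower and 5 higher in mean in the running model than in the CUS model, and 0 were at 0 in any library. Most of the sum was Sst, the gene of the peptide somatostatin, with 546.92, 562.52 and 652.58 FPKM in the CUS model and 495.44, 451.19 and 440.88 in the running model. The other marker lower in mean was Slc32a1, the vesicular GABA transporter. Its values overlapped, at 32.89, 30.85 and 25.99 FPKM in the CUS model and 29.43, 29.56 and 29.97 in the running model. The part of inhibitory neurons in the Grm2 values was not tested. In bulk tissue, fewer cells of a type and less RNA per cell cannot be told apart.

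Grm3, the other group II receptor, which also responds to the peptide transmitter N-acetylaspartylglutamate (NAAG), lies on chromosome 5 (9485236 to 9725352). Its values were 15.66, 17.05 and 16.3 FPKM in control, 16.35, 12.76 and 15.32 in the CUS model, and 14.34, 14 and 15.47 in the running model. All running model libraries were below all control libraries, and CUS model replicate 2 was the lowest of the 9. The log2 difference from control was -0.14 in the CUS model (SE 0.0871, limma adjusted p = 0.426) and -0.16 in the running model (adjusted p = 0.517). Without CUS model replicate 2 the first of these was -0.04.

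Markers of astrocytes and oligodendrocyte precursors, cell types in which Grm3 is also known, were set beside it. The sum of 6 astrocyte markers overlapped between the groups, at 525 to 596 FPKM in control, 509 to 602 in the CUS model and 494 to 557 in the running model. Of these markers 5 were lower in mean in the CUS model than in control. In the running model 5 were higher in mean than in the CUS model. Aldoc, the marker with the highest values, went the other way in both. Against control, 3 were higher and 3 lower in mean in the running model. The sum of 6 oligodendrocyte precursor markers was 78.6 to 95.8 FPKM in control, 71.5 to 79.2 in the CUS model and 72.9 to 74.0 in the running model, and 6 of 6 were lower in mean in the running model than in control. The highest of these sums, 95.8, was control replicate 3, and the other 8 libraries lay at 71.5 to 81.7. Olig1, Olig2, Sox10 and Cspg4 were at their highest in control replicate 3, and Pdgfra and C1ql1 were not. No marker of either list was at 0 in any library, and their part in the Grm3 values was not tested.

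The start regions of both group II genes are shown because Grm2 had the largest estimated difference among the 6 receptors and Grm3, its closest relative in the family, shares its coupling. The windows run from 250 bases before the annotated start to 50 after it (RefSeq, GRCm38.p6, minus strand, 5′ to 3′), at chr9:106656060-106656359 for Grm2 and chr5:9725303-9725602 for Grm3. Of the 6 receptors, 4 had a window in this table. Capitals mark the GC box GGGCGG, the core recognised by Sp-family factors, searched on both strands.
Grm2: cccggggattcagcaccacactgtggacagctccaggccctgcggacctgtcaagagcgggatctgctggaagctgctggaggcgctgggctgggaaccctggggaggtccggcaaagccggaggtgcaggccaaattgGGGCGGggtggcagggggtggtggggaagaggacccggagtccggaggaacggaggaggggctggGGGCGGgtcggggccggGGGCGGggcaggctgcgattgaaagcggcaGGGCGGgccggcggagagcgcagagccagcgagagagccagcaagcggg
Grm3: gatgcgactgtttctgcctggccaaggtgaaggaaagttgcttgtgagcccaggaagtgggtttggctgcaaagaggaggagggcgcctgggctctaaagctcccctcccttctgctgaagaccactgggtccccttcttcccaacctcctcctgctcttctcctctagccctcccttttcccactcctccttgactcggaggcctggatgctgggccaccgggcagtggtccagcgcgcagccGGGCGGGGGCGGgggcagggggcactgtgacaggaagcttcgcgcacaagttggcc
The Grm2 window held 4 GC boxes, 22 CpG and 72.0% GC, and the Grm3 window held 2 GC boxes, 11 CpG and 63.7% GC. The median over 32851 promoter windows of the same length was 7 CpG and 52.7% GC. At least 1 GC box stood in 35.7% of those windows, at least 2 in 19.5% and at least 4 in 5.49%. Neither window held, on either strand, the letters of a cAMP response element (TGACGTCA, in 1.79% of windows), an AP-1 site (TGANTCA, 7.81%), an Egr site (GCGTGGGCG, 0.612%) or a TATA box (TATAAA, 13.6%). The letters of the Egr site and the GC box can overlap, and a match describes letters, not a bound site.

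Grm7, a low-affinity group III receptor of the presynaptic active zone, lies on chromosome 6 (110645349 to 111567230). It had 13.19, 13.14 and 13.03 FPKM in control, 13.06, 13.36 and 14.74 in the CUS model, and 13.88, 13.73 and 15.21 in the running model. The control libraries were tightly grouped, at 13.1 ± 0.0819 FPKM (SD, n = 3), all running model libraries were above them, and the CUS model libraries spread from the control level upward. The log2 difference of the running model from control was 0.12 (SE 0.0660, limma adjusted p = 0.529), and its 95% interval ran from -2.05% to 19.9%. Without running model replicate 3, the highest of the 9 libraries, it was 0.07.

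Grm4, a group III receptor best known from cerebellar and striatal synapses, lies on chromosome 17 (27422387 to 27513826). Its values were 6.71, 7.17 and 7.69 FPKM in control, 6.9, 6.7 and 6.3 in the CUS model, and 7.29, 7.97 and 7.41 in the running model. Every running model library was above every CUS model library, and control overlapped with both. The running model differed from the CUS model by 0.18 on the log2 scale (SE 0.0734, limma unadjusted p = 0.0364, adjusted p = 0.184), with a range over the alternatives from 0.13 with library quality weights (adjusted p = 0.193) to 0.28 after rescaling to TPM (adjusted p = 0.115). It was 0.14 with the trend on transcript length and GC content removed (adjusted p = 0.329) and 0.14 without running model replicate 2 (adjusted p = 0.398). The sum of 7 markers of striatal projection neurons was 98.6 to 112.03 FPKM in the CUS model, 112.33 to 124.08 in the running model and 113 to 129 in control. Of these markers, 4 were higher and 3 lower in mean in the running model than in the CUS model, and 0 were at 0 in any library. Only Penk did not overlap, with 32.67, 20.45 and 32.73 FPKM in the CUS model and 33.8, 38.27 and 36.52 in the running model. The 3 markers lower in mean were Drd1, Drd2 and Rgs9. The part of these markers in the Grm4 values was not tested.

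Grm8, a group III receptor with high affinity for glutamate, lies on chromosome 6 (27275121 to 28135146). It had 7.3, 7.21 and 6.7 FPKM in control, 7.5, 7.26 and 7 in the CUS model, and 7.41, 6 and 6.98 in the running model. Running model replicate 2 was the lowest library, and the groups overlapped in every pair. The log2 difference of the running model was -0.09 from the CUS model (SE 0.0823, limma adjusted p = 0.524) and -0.06 from control (adjusted p = 0.823).

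In the comparison of the CUS model with control, 0 of 6 receptors were called by limma at an adjusted p under 0.05, where 0.00714% of the 14013 genes were, and 0 had an unadjusted p under 0.05, where 14.7% did. The adjusted p ran from 0.426 for Grm3 to 0.955 for Grm2. Of the 6 estimates 4 were below 0, with a median of -0.02 beside 0.02 for all genes, and 0 receptors had groups that did not overlap, where 19.7% of genes did. The 95% intervals of the 6 receptors lay between -20.8% and 16.2%.

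In the comparison of the running model with the CUS model, limma called 0 of 6 (0.00714% of all genes). Grm2 and Grm4, in opposite directions, had an unadjusted p under 0.05, 2 of 6 beside 23.5% of all genes, and only Grm4 had groups that did not overlap, 1 of 6 beside 24.9%. These shares are near the background. The median log2 difference was 0.01 beside -0.03 for all genes, and the 95% intervals lay between -24.2% and 26.4%.

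In the comparison of the running model with control, 0 of 6 were called by limma (0.0214% of all genes), and Grm2 had an unadjusted p under 0.05 (11.6% of all genes). Groups did not overlap for Grm2 and Grm3, which were lower, and Grm7, which was higher in the running model. That is 3 of 6 beside 22.4% of all genes, a share above the background but of only 6 genes, and not tested further. Grm3 and Grm7 had limma unadjusted p of 0.0994 and 0.108. An exact two-sided permutation test gave each of these 3 a p of 0.1, the smallest that 3 libraries against 3 allow. Groups that do not overlap always give this value, so the test adds nothing to the lack of overlap. The 95% intervals lay between -24.8% and 19.9%. The libraries of each group enter 2 of these comparisons, so the comparisons are not independent of each other. A test for any difference among the 3 groups (limma F test) called 0 of 6, where 0.0214% of all genes were called. Its smallest adjusted p was 0.209, for Grm2 (unadjusted p = 0.0327, where 21.1% of all genes were under 0.05).

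**Figure D2:**
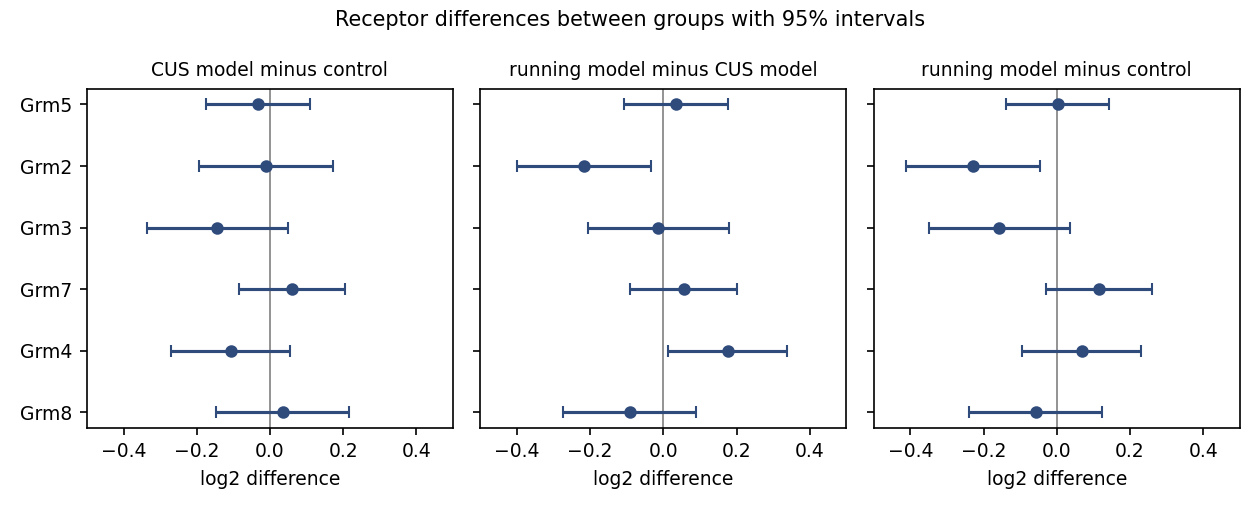
Log2 difference of each receptor gene in the 3 comparisons (horizontal axis, log2(FPKM + 0.5)), with points for the estimate and bars for the 95% interval without adjustment for multiple tests. The intervals of Grm2 exclude 0 in the running model against the CUS model and against control, that of Grm4 excludes 0 in the running model against the CUS model, and none of the 3 passed the adjusted threshold.

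The make-up of receptor expression within a library does not depend on how libraries are scaled against each other, and it is given here as a description. Of the summed FPKM of the 6 receptors, which was 86.7 to 94.3 per library, group II (Grm2 and Grm3) held 44.1% to 44.8% in control, 41.9% to 46.2% in the CUS model and 38.5% to 42.3% in the running model. The group III receptors Grm4, Grm7 and Grm8 together held 29.1% to 29.9% in control, 29.2% to 31.5% in the CUS model and 31.6% to 32.9% in the running model. The group III share of every running model library was thus above that of the other 6 libraries, and the group II share of every running model library was below control and overlapped with the CUS model. Shares are parts of a whole, so a lower level of Grm2 raises the share of every other receptor. Of the group III receptors, Grm4 and Grm7 had their highest mean in the running model. Grm8 had its lowest there, at 6.80 FPKM beside 7.07 in control and 7.25 in the CUS model. Grm5 held 25.3% to 26.8% in control, 24.5% to 27.4% in the CUS model and 26.0% to 29.6% in the running model.

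Ratios between receptors show the same values pair by pair. The ratio of Grm7 to Grm2 was 0.516 to 0.531 in control, 0.482 to 0.615 in the CUS model and 0.630 to 0.708 in the running model, which was above all other libraries. Every running model library was above control in Grm7 and below it in Grm2, so the separation of this ratio from control follows from the single values. The ratio of Grm2 to Grm4 was 3.22 to 3.81 in control, 3.52 to 3.92 in the CUS model and 2.43 to 3.26 in the running model. It was below the CUS model in every running model library and overlapped with control. The ratio of Grm3 to Grm7 was 1.19 to 1.30 in control, 0.955 to 1.25 in the CUS model and 1.02 to 1.03 in the running model. The ratios of Grm2 to Grm3 and of Grm2 to Grm5 were also computed. In the running model the former lay narrowly below the CUS model and overlapped with control. The latter lay narrowly below control and overlapped with the CUS model. These shares and ratios were looked at after the single receptors, and no test was run on them.

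**Figure D3:**
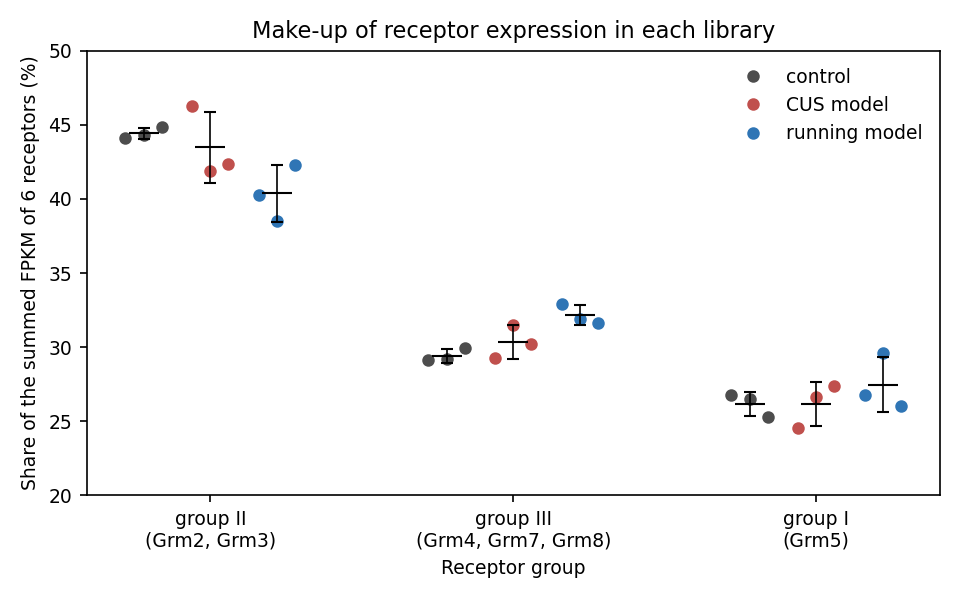
Share of the summed FPKM of the 6 receptors held by each receptor group (vertical axis in percent, from 20), by library. Points are libraries (control dark grey, CUS model red, running model blue) and black bars are the mean and SD of 3 libraries. The running model libraries hold 31.6% to 32.9% in group III, above the other 6 libraries, and 38.5% to 42.3% in group II. Shares are parts of a whole, so a lower share of one group raises those of the others.

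The spread within groups differed between receptors. The within-group SD of log2 values was 0.0689 for Grm7, 0.0714 for Grm5, 0.0741 for Grm4, 0.0955 for Grm8, 0.112 for Grm2 and 0.117 for Grm3, beside a median of 0.112 over all genes. Of all genes, 17.2% had a lower value than Grm7 and 53.1% a lower value than Grm3.

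The other genes of the pathway came from 6 lists, of which 83 of 84 genes passed the filter. The exception was Naalad2, a peptidase related to the enzyme that cleaves NAAG, with at most 0.40 FPKM. By limma, 0 of the 83 were called in any of the 3 comparisons. At an unadjusted p under 0.05 there were 16 in the CUS model against control (14.7% of all genes), 28 in the running model against the CUS model (23.5%) and 8 in the running model against control (11.6%).

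Of 14 genes of Gq and phospholipase C signalling, the route downstream of Grm5, 10 were below 0 in the CUS model against control, with a median log2 difference of -0.13 beside 0.02 for all genes. In the running model against the CUS model 11 of 14 were above 0, with a median of 0.17 beside -0.03 for all genes. Of the 14, 7 had an unadjusted p under 0.05, beside 23.5% of all genes. With the trend on transcript length and GC content removed the medians were -0.09 and 0.11, and 9 of 14 were above 0 in the latter comparison. Without CUS model replicate 3 the medians were -0.07 and 0.11. Prkca, a protein kinase C, had 23.8, 24.14 and 20.9 FPKM in the CUS model and 28.56, 30.01 and 34.29 in the running model, with no overlap (log2 difference 0.42, SE 0.0778, limma adjusted p = 0.0776). Dagla, which makes the endocannabinoid 2-arachidonoylglycerol, had 26.12, 29.63 and 25.83 against 33.48, 32.8 and 33.26 (log2 difference 0.29, limma adjusted p = 0.0776). Plcb1, a phospholipase C, had 31.97, 31.2 and 29.01 FPKM in control and 26.49, 25.5 and 25.87 in the CUS model (log2 difference -0.24, limma adjusted p = 0.260), and Plcb4 had a log2 difference of -0.22 (adjusted p = 0.260).

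Of 14 scaffolds and partners of the receptors, 9 were below 0 in the CUS model against control (median -0.04) and 10 above 0 in the running model against the CUS model (median 0.09). Elfn2, a postsynaptic adhesion protein that binds group III receptors across the synapse, had 29.2, 26.39 and 24.89 FPKM in control, 27.8, 32.99 and 25.43 in the CUS model, and 33.77, 41.42 and 35.34 in the running model. The running model libraries were above all others (log2 difference from the CUS model 0.36, limma adjusted p = 0.0989; from control 0.45, adjusted p = 0.168). Homer1, whose product binds the Grm5 receptor, had 34.23, 32.54 and 29.12 FPKM in control, 24.33, 31.35 and 39.77 in the CUS model, and 39.65, 42.6 and 47.5 in the running model (log2 difference from control 0.43, limma adjusted p = 0.303). These values are for the gene as a whole and do not separate its transcripts. Shank2, a postsynaptic scaffold, had a log2 difference of 0.38 between the running and CUS models (adjusted p = 0.0924). In the CUS model against control Siah1a, a ubiquitin ligase that binds group I receptors, had a log2 difference of 0.27 (adjusted p = 0.255), and Shank1 one of -0.24 (adjusted p = 0.330). With the trend removed the difference between the running and CUS models was 0.23 for Elfn2 and 0.24 for Shank2, and that between the CUS model and control was 0.16 for Siah1a and -0.10 for Shank1. Without CUS model replicate 3 that of Shank1 was -0.13.

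Of 20 genes of Gi/o proteins, adenylyl cyclases and GIRK potassium channels, the routes of groups II and III, 10 were above 0 in the CUS model against control and 11 in the running model against the CUS model, with medians of -0.01 and 0.03. Without CUS model replicate 3 both medians changed sign, to 0.02 and -0.02, and 9 of 20 were above 0 in the latter comparison. Kcnj6, a GIRK channel subunit, had 12.93, 11.33 and 10.38 FPKM in control, 9.28, 11.88 and 8.81 in the CUS model, and 14.08, 14.07 and 14.71 in the running model, which stood above all other libraries (log2 difference from the CUS model 0.51, SE 0.109, limma adjusted p = 0.0776). The adenylyl cyclase Adcy9 had a log2 difference of 0.31 in the same comparison (adjusted p = 0.0858). In the CUS model against control, Gng3, a G protein gamma subunit, had a log2 difference of 0.18 (adjusted p = 0.311), which was 0.12 without CUS model replicate 3 and 0.10 with the trend removed. Adcy1, an adenylyl cyclase stimulated by calcium, had 79.18, 77.16 and 75.45 FPKM in control and 72.7, 72.1 and 47.54 in the CUS model, where CUS model replicate 3 stood far below the other libraries. Its log2 difference of -0.29 (limma adjusted p = 0.341) was -0.09 without that library and -0.16 with the trend removed.

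Of 11 desensitisation genes, 7 were above 0 in the CUS model against control and 5 in the running model against the CUS model, with medians of 0.00641 and -0.00200. In the latter comparison the median was 0.03 both with the trend removed (7 of 11 above 0) and without CUS model replicate 3 (6 of 11). Rgs8, a regulator that speeds the turning off of Gi/o proteins, had a log2 difference of 0.33 between the running and CUS models (limma adjusted p = 0.101), and Rgs2, which acts on Gq, one of -0.18 (adjusted p = 0.182). With the trend removed these were 0.20 and -0.09, and without CUS model replicate 3 that of Rgs2 was -0.09. In the CUS model against control Rgs14 had 0.20 and Rgs8 -0.26 (adjusted p = 0.289 and 0.294).

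Of 14 genes for the supply and clearance of glutamate and NAAG, 9 were above 0 in the CUS model against control and 7 in the running model against the CUS model, with medians of 0.05 and 0.00118. Slc1a2, the main astrocytic glutamate transporter, had 210.25, 228.45 and 223.7 FPKM in control, 191.43, 189.25 and 188.32 in the CUS model, and 204.49, 232.12 and 239.37 in the running model. The CUS model libraries were below all others, with a log2 difference from control of -0.22 (limma adjusted p = 0.267) and one of 0.24 for the running model against the CUS model (adjusted p = 0.0928). With the trend removed these were -0.13 and 0.11. Rimklb, an enzyme that makes NAAG, the peptide that acts on Grm3, had 11.06, 11.03 and 9.74 FPKM in control, 10.62, 11.17 and 11.2 in the CUS model, and 9.2, 9.58 and 8.7 in the running model. Its running model libraries were below all others (log2 difference from the CUS model -0.25, limma adjusted p = 0.0924; from control -0.20, adjusted p = 0.312). Gls2, a glutaminase, had a log2 difference of 0.15 in the CUS model against control (adjusted p = 0.297).

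Of 10 genes of receptor-dependent synaptic depression and its translation control, 6 were below 0 in the CUS model against control (median -0.03) and 7 above 0 in the running model against the CUS model (median 0.04). With the trend on length and GC content removed both directions turned, to 6 of 10 above 0 with a median of 0.01 and 6 of 10 below 0 with a median of -0.01. Arc, an activity-induced gene whose product takes part in the removal of AMPA receptors after group I receptor activation, had 115.03, 49.29 and 121.55 FPKM in control, 42.31, 57.02 and 30.28 in the CUS model, and 122.55, 136.67 and 138.9 in the running model. Its log2 difference was 1.65 between the running and CUS models (SE 0.307, limma adjusted p = 0.0776) and -1.07 between the CUS model and control (adjusted p = 0.255), where control replicate 2 lay within the CUS model range. Mapk3, an ERK kinase, had a log2 difference of 0.35 in the CUS model against control (adjusted p = 0.253) and -0.30 in the running model against the CUS model (adjusted p = 0.110), the latter -0.17 with the trend removed.

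In the running model against control the medians of these 6 lists lay between -0.00181, for the Gi/o list, and 0.07, for the scaffolds, beside -0.02 for all genes. Kcnj6 had a log2 difference of 0.30 (limma adjusted p = 0.326), Adcy9 one of 0.20 (adjusted p = 0.364), Dagla one of 0.16 (adjusted p = 0.393), Prkca one of 0.17 (adjusted p = 0.438) and Gls2 one of 0.16 (adjusted p = 0.326). For Arc it was 0.58 (adjusted p = 0.493), for the receptor kinase Grk5 0.20 (adjusted p = 0.455) and for Rgs14 0.09 (adjusted p = 0.676).

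**Figure D4:**
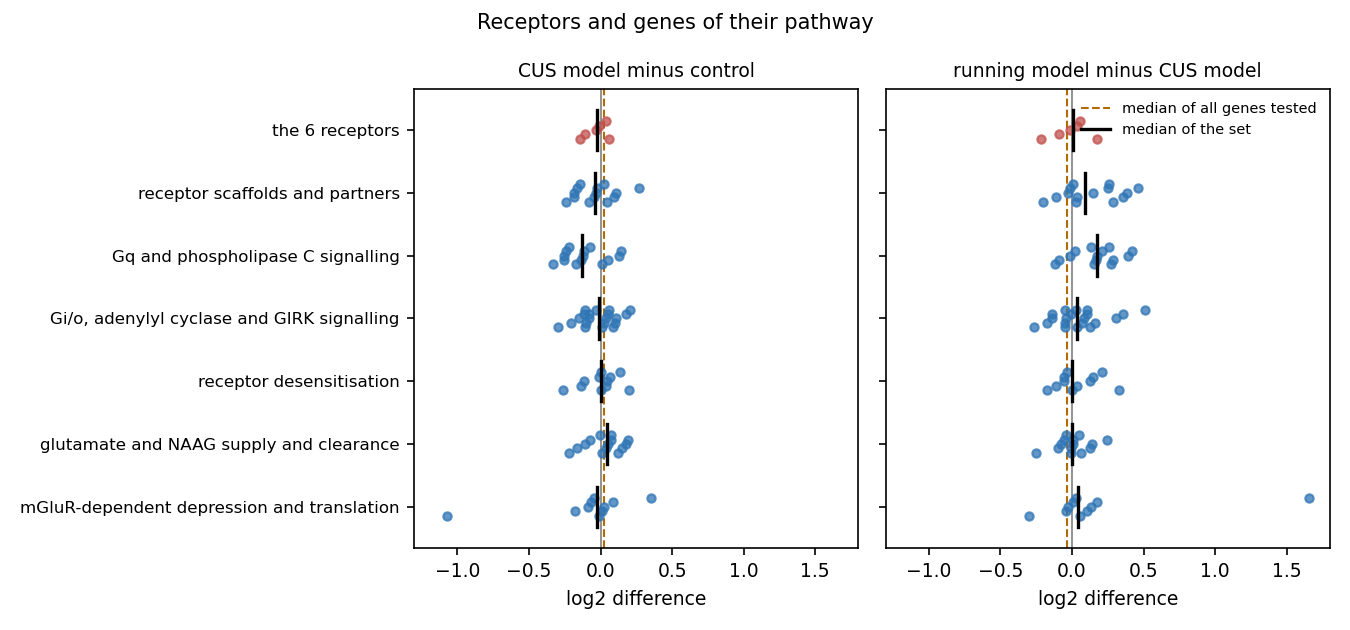
Log2 differences (horizontal axis, log2(FPKM + 0.5)) of the 6 receptors and of the genes of 6 pathway lists in the CUS model against control (left) and the running model against the CUS model (right). Points are genes, black ticks are the median of each set, and the dashed line is the median of all genes tested. The receptors (red) lie between -0.22 and 0.18, and Arc, at -1.07 and 1.65, is the point farthest from 0 on either side.

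The genes whose pattern over the 9 libraries was most like that of each receptor were ranked by Pearson r of log2 values among 12362 genes with a mean of at least 1 FPKM. All genes share the same 9 libraries, and the highest of 12362 values is high by selection, so r describes likeness only. For Grm2 these were Sco1 (r = 0.949), a copper chaperone of cytochrome oxidase, Pld3 (r = 0.930) and Rabl3 (r = 0.925). For Grm3 they included Ptprd, a synaptic adhesion phosphatase (r = 0.957), and Lrrc4c, a netrin-G ligand (r = 0.934). For Grm5 they were the cation channel gene Trpc5 (r = 0.947), Zbtb41 (r = 0.894) and Reps1 (r = 0.865).

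For Grm7 the closest genes were Lhfp (r = 0.961), Ddhd1, a phospholipase A1 (r = 0.948), and Ttpal (r = 0.930). For Grm4 they were Ahcyl2 (r = 0.943), Hus1 (r = 0.939) and Asrgl1 (r = 0.938), and for Grm8 Sprn (r = 0.958), Ap3m2 (r = 0.954) and Scfd2 (r = 0.943). Leaving out the 2 libraries farthest from the median of the receptor, r with the first-ranked gene was 0.964 for Grm5, 0.864 for Grm8, 0.841 for Grm4, 0.798 for Grm7 and 0.756 for Grm2. For Grm2 and Sco1 r thus fell from 0.949 to 0.756, and for Grm5 and Trpc5 it moved little. Leaving out the farthest libraries narrows the range of a receptor, which can lower r by itself. For Grm3 and Ptprd r was 0.920.

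As to the libraries as a whole, 17071 to 17280 genes were above 0 per library, and the FPKM values summed to 370441 to 393663 in 8 libraries and to 423257 in CUS model replicate 3. The 6 excitatory neuron markers of cortex summed to 3008 to 3351 FPKM, with none at 0. Control replicate 3 stood apart in choroid plexus markers, at 216 FPKM against 7.21 to 41.2 in the other 8 libraries. It also stood apart in 7 mature oligodendrocyte markers, which summed to 1147 FPKM there and to 462 to 684 in the other 8 libraries, and 7 of 7 were lower in mean in both models than in control. Without control replicate 3 the Grm2 difference between the running model and control was -0.23, and without CUS model replicate 3 that between the running and CUS models was -0.24, and neither was called.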

How the data were processed

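RNA of medial prefrontal cortex was sequenced in 9 libraries of 3 groups. Per the labels' protocols, polyadenylated RNA was selected and random-primed cDNA was made, with no step that marks strand. No other kept gene overlaps the span of any of the 6 receptors in RefSeq GRCm38.p6. Build mm10 and the tools RSEM 1.2.12, DESeq2 1.4.5 and Bowtie2 2.2.5 are named per the submitters' processing notes, without their roles. The FPKM values are those the authors deposited, scaled to transcript length and library and rounded. The depth behind them is unknown, so no counting interval is given.

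Values were taken as log2(FPKM + 0.5). One limma model (3.58.1, R 4.3.3) with an intensity trend was fitted to the 9 libraries and 14013 genes, with Benjamini-Hochberg adjustment over all of them and a call at an adjusted p under 0.05. Intervals are 95% and unadjusted. The code was tested on simulated data. Replicates were numbered in order of listing. Every receptor is named. From each pathway list the called genes are named, or up to 2 with the smallest p in a comparison, and the likeness ranking names 3 genes per receptor. Some genes that these rules take are not reported here. The ranking passes over predicted genes, Riken clones, Y-linked genes and other receptors of the family. Members, lists and rules were chosen with earlier results of these data known. Alternatives covered the pseudocount, filter, scaling, variance model, libraries in the fit and each library left out.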

Additional observations from a re-analysis of the deposited data

How the results depend on the processing

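Each of the 18 receptor differences was computed again under 19 alternatives, and 0 of the 342 values were called. Some alternatives can change the p but not the estimate or its sign. These are the filters, no intensity trend, only the 2 groups compared, and a library of the uncompared group left out. The lowest adjusted p was 0.0522, for Grm2 in the running model against the CUS model with library quality weights. The sign was the same under all alternatives for Grm3 and Grm4 in the CUS model against control, Grm2, Grm4 and Grm7 in the running model against the CUS model, and Grm2, Grm3, Grm4 and Grm7 in the running model against control. In the other differences, estimated between -0.09 and 0.06, it turned 23 times. In the CUS model against control this gave 0.0642 for Grm2 with quality weights and 0.0332 with the length and GC trend removed (added after seeing the data), 0.00135 for Grm5 with the trend removed, and -0.00371 for Grm7 and -0.0281 for Grm8 after rescaling to TPM. In the running model against the CUS model it gave 0.0869 for Grm3 after rescaling to TPM, 0.00807 with quantile normalization and 0.0410 with the trend removed, -0.0445 for Grm5 with the trend removed, and 0.00307 for Grm8 after rescaling to TPM. Grm5 in the running model against control was -0.0119 with quality weights and -0.0432 with the trend removed. With 1 library left out the range in the CUS model against control was -0.0732 to 0.0250 for Grm2 and -0.000787 to 0.0586 for Grm8. With 1 library left out the range in the running model against the CUS model was -0.114 to 0.0592 for Grm3 and -0.000976 to 0.0808 for Grm5. With 1 library left out the range in the running model against control was -0.0342 to 0.0367 for Grm5 and -0.118 to 0.0240 for Grm8.

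The counts of all genes called varied widely. For the CUS model against control (1 gene) the count was 0 with at least 1 FPKM required in all 9 libraries, 8 with quality weights and 0 with the trend removed, and 1 to 6 with 1 library left out. For the running model against the CUS model (1 gene) it was 0 with no filter, 3 with the stricter filter, 3 after TPM, 2 with quantile normalization, 2178 with quality weights, 15 with only the 2 groups compared and 0 with the trend removed, and 0 to 1518 with 1 library left out. The count of 1518 came without CUS model replicate 2. For the running model against control (3 genes) it was 1 with no filter, 7 without the intensity trend, 147 with quality weights, 24 with only the 2 groups and 9 with the trend removed, and 1 to 10 with 1 library left out. The F test over the 3 groups (3 genes) gave 1 with no filter, 0 with the stricter filter, 1373 with quality weights and 0 with the trend removed, and 0 to 63 with 1 library left out. The cause was not tested. No paired analysis was possible because the replicate numbers follow the order of listing and pair no libraries. Where a library was left out, its group had 2 libraries, and the spread was shared over the 3 groups. The read depth is unknown.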
